A study of Homo sapiens with 12 samples.

Results

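The human genome holds a small set of annotated genes that derive from endogenous retroviruses, and 9 of them were followed in HAP1 cells with and without SETDB1: ERVW-1, ERVFRD-1, ERV3-1, ERVMER34-1, ERVH48-1, ERVK13-1, ERVK3-1, ERVV-1 and ERVV-2. They were taken by their GENCODE 29 symbols from the 58735 gene IDs of the count tables, and all 9 were found. HAP1 is a near-haploid human cell line whose label gives chronic myelogenous leukemia as the cell type. RNA of wild-type cells (WT) and of the derivative labelled SETDB1 KO was sequenced in 3 biological replicates per genotype with a non-directional kit and in 3 with a directional kit, all from cells grown in IMDM with fetal bovine serum and no further treatment. The labels do not say how the knockout was made, whether it is a single clone or which cultures the replicates came from, so the p-values below measure the spread between these libraries.

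Endogenous retroviruses are germline copies of past retroviral infections, flanked by long terminal repeats that can act as promoters. A few of their envelope genes kept an open reading frame, and the proteins of ERVW-1 and ERVFRD-1, the syncytins, fuse trophoblast cells in the placenta. SETDB1 is a histone methyltransferase that is brought to retroviral sequences by KRAB zinc finger proteins through TRIM28 and places methyl groups on lysine 9 of histone H3, a mark of silenced chromatin.

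Loss of SETDB1 was accompanied by higher RNA of 3 of the listed genes and by no called decrease. Over all genes tested, 25.5% were called higher and 25.9% lower. ERV3-1 rose 3.49-fold, ERVV-2 rose 6.09-fold and ERVH48-1 rose 9.49-fold, while ERVK13-1 and ERVK3-1 did not pass the test. ERVV-2 and ERVH48-1 entered the test only through their KO counts. ERVV-1, the neighbour and close relative of ERVV-2, had 1 read in the WT libraries together and between 10 and 13 in each KO library, too few for the main test. ERVMER34-1 had 4 to 12 reads per library and ERVW-1 0 to 5, with overlapping groups, and ERVFRD-1 had no read in any of the 6 non-directional libraries.

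The regions before the annotated starts of the listed genes differ in base composition. They are shown for ERV3-1 and ERVV-1, whose RNA was higher in KO, and for ERVK13-1 and ERVK3-1, the tested genes that did not pass. Each is the 250 bases before a RefSeq start on GRCh38.p14, read 5′ to 3′ on the strand of the gene, and capitals mark the letters CCAAT or TATAAA on either strand (ATTGG or TTTATA on the other). RefSeq promoters were matched for 6 of the 9 genes. The first ERV3-1 window is chr7:65006688-65006937 on the minus strand, the second, at a start inside the gene, is chr7:64999443-64999692 on the minus strand, ERVV-1 is chr19:53013671-53013920 on the plus strand, ERVK13-1 is chr16:2673440-2673689 on the minus strand and ERVK3-1 is chr19:58305127-58305376 on the plus strand.
ERV3-1 upstream start: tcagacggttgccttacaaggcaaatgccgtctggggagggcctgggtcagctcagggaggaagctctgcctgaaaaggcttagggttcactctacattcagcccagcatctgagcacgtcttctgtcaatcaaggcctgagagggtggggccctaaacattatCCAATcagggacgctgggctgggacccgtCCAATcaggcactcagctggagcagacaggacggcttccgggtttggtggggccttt
ERV3-1 inner start: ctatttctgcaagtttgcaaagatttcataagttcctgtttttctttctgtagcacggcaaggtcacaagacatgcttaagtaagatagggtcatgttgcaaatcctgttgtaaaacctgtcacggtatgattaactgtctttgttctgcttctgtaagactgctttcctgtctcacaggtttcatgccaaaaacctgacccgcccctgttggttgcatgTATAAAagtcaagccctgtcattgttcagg
ERVV-1: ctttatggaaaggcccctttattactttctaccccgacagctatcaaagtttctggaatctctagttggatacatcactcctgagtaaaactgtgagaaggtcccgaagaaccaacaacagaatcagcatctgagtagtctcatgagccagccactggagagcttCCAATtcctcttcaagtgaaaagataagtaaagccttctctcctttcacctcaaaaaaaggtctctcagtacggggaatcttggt
ERVK13-1: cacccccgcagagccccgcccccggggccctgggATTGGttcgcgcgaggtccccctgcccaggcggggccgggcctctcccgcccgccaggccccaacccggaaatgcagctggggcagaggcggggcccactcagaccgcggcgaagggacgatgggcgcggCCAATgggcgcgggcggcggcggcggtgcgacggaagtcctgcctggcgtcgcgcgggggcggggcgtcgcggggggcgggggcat
ERVK3-1: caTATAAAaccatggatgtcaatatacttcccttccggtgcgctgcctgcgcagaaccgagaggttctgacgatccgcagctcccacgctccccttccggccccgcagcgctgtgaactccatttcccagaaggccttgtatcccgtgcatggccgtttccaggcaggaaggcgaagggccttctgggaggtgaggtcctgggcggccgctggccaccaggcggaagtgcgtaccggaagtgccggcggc

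The ERVK13-1 window held 35 CG dinucleotides and the ERVK3-1 window 20, while the windows of ERV3-1 held 7 and 3 and that of ERVV-1 held 3. The windows not shown held 4 CG at ERVW-1, with a CCAAT and a TATAAA, and 19 CG at ERVMER34-1. Neither gene could have been called by its permutation test, since the smallest p that 3 against 3 libraries allow is 0.1. These windows therefore cannot be assigned to genes with or without a change, and a link between CG and RNA change was not tested. Over all 35116 RefSeq promoter windows of this length the median was 11 CG, with quartiles of 3 and 23. Fewer CG than in the ERVK13-1 window were found in 94.2% of them, and fewer than in the ERVV-1 window in 22.9%. CCAAT stood in the upstream ERV3-1 window, in ERVV-1 and in ERVK13-1, against 32% of all windows. TATAAA stood 30 bases before the inner start of ERV3-1 and 248 bases before that of ERVK3-1, against 10.7% of all windows. The inner ERV3-1 start lies 7211 bp from the nearest GENCODE 29 start of the gene, and which start the reads came from was not tested.

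The checks of the material concern all of these results. SETDB1 itself had 651, 543 and 519 reads in WT and 118, 106 and 118 in KO, a log2 fold change of -2.39 (SE 0.079, adjusted p = 7.0e-43, edgeR quasi-likelihood test with Benjamini-Hochberg adjustment), so the labels matched the targeted gene and some RNA of it remained. Within 5 Mb of SETDB1, 114 of 143 tested genes were also lower and 8 higher, with a median log2 fold change of -0.49, and the part of this in the SETDB1 value was not tested. The non-directional libraries held 8921959 to 10199215 gene counts, which puts 3 counts at 0.294 to 0.336 counts per 1000000 gene counts (CPM). The KO libraries differed among themselves by no more than sampling noise (chi-square per degree of freedom 0.956 to 0.991, against 1.03 to 2.00 between WT libraries). With these 3 libraries summed and counted as 1 the same number of listed genes, 3, was called. That fit used the genes kept by the main filter, which ERVH48-1 and ERVV-2 passed only through their KO counts. Of 10 haematopoietic markers 4 had no read, among them SPI1, and PTPRC had 1 read, so defining blood cell markers were at or near 0 in cells labelled as leukemic, while TAL1 and KIT had enough reads to be tested. In bulk RNA, fewer cells that express a gene and less RNA per cell cannot be told apart.

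ERV3-1 is the gene of a single full-length provirus with a long envelope reading frame. It lies at chr7:64990809-65006743 on the minus strand (GRCh38, GENCODE 29), is annotated as protein coding, and has 4 exon blocks. It had 19, 27 and 21 reads in WT and 83, 82 and 81 in KO, that is 1.86, 3.03 and 2.24 CPM against 8.49, 8.37 and 7.97 CPM. Every KO library was above every WT library, and the KO values lay close together. The mean was 2.38 ± 0.594 CPM in WT and 8.28 ± 0.271 CPM in KO (SD, n = 3 each), and the log2 fold change was 1.80 (SE 0.18, adjusted p = 2.5e-14, edgeR). Of its 4574 exon bases, 372 (8.13%) are shared with ZNF117 on the same strand, where a read would be set aside as ambiguous under the counter's default setting.

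ERVH48-1 encodes suppressyn, a secreted envelope-derived protein that blocks fusion by the ERVW-1 protein. It lies at chr21:42916803-42925646 on the minus strand and is annotated in GENCODE 29 as a long intergenic noncoding RNA of 2842 exon bases. It had 3, 2 and 0 reads in WT and 21, 20 and 12 in KO. The groups did not overlap, and the WT libraries were at or below the 3 counts that the depth can show. The mean rose from 0.173 ± 0.154 to 1.79 ± 0.530 CPM (SD, n = 3 each), with a log2 ratio of KO to WT of 3.25 (SE 0.50, adjusted p = 5.5e-08, edgeR). The ratio of the pooled CPM was 10.2, with an exact 95% interval of 4.09 to 32.6 that covers counting error only.

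ERVV-1 and ERVV-2 are neighbouring copies of a retroviral envelope gene on the long arm of chromosome 19. ERVV-1 is a single exon at chr19:53013921-53016122 and ERVV-2 has 2 exon blocks at chr19:53044738-53051076, both on the plus strand, both protein coding and 28615 bp apart. Their transcripts align over 1988 bases with 95.88% identity, and 51% of the 50-base words of ERVV-1 and 46.1% of those of ERVV-2 also occur in another annotated gene. Reads from such stretches could be set aside as not unique or split between the copies, so both genes were read singly and as a sum.

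ERVV-2 had 3, 3 and 2 reads in WT and 22, 13 and 18 in KO. All KO libraries were above all WT libraries, and the WT libraries were again at the floor. Its mean rose from 0.281 ± 0.0627 to 1.78 ± 0.463 CPM (SD, n = 3 each), which is 2.61 on the log2 scale (SE 0.44, adjusted p = 4.6e-07, edgeR). The pooled ratio was 6.35 (exact 95% interval 3.00 to 15.5, counting error only).

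ERVV-1 had 0, 0 and 1 reads in WT and 11, 10 and 13 in KO, or 0.0355 ± 0.0614 against 1.14 ± 0.130 CPM (SD, n = 3 each). The groups did not overlap, but the gene fell below the filter on low counts. The exact two-sided permutation test of the CPM gave p = 0.1 (0.3 adjusted over the 3 listed genes tested this way), which is the smallest p that 3 against 3 libraries allow. The ratio of 32.6 rests on 1 WT read and has an exact 95% interval of 5.47 to 1325. In the edgeR fit with no filter its log2 fold change was 4.58 (SE 0.76, adjusted p = 2.2e-08). It passed in each of the 6 alternative fits that kept it, this one included. Those with a library left out kept it only through its KO counts, so passing in them adds no support. Together, ERVV-1 and ERVV-2 had 3 reads in every WT library and 33, 23 and 31 in the KO libraries, or 0.317 ± 0.0212 against 2.93 ± 0.527 CPM (SD, n = 3 each).

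**Figure D1:**
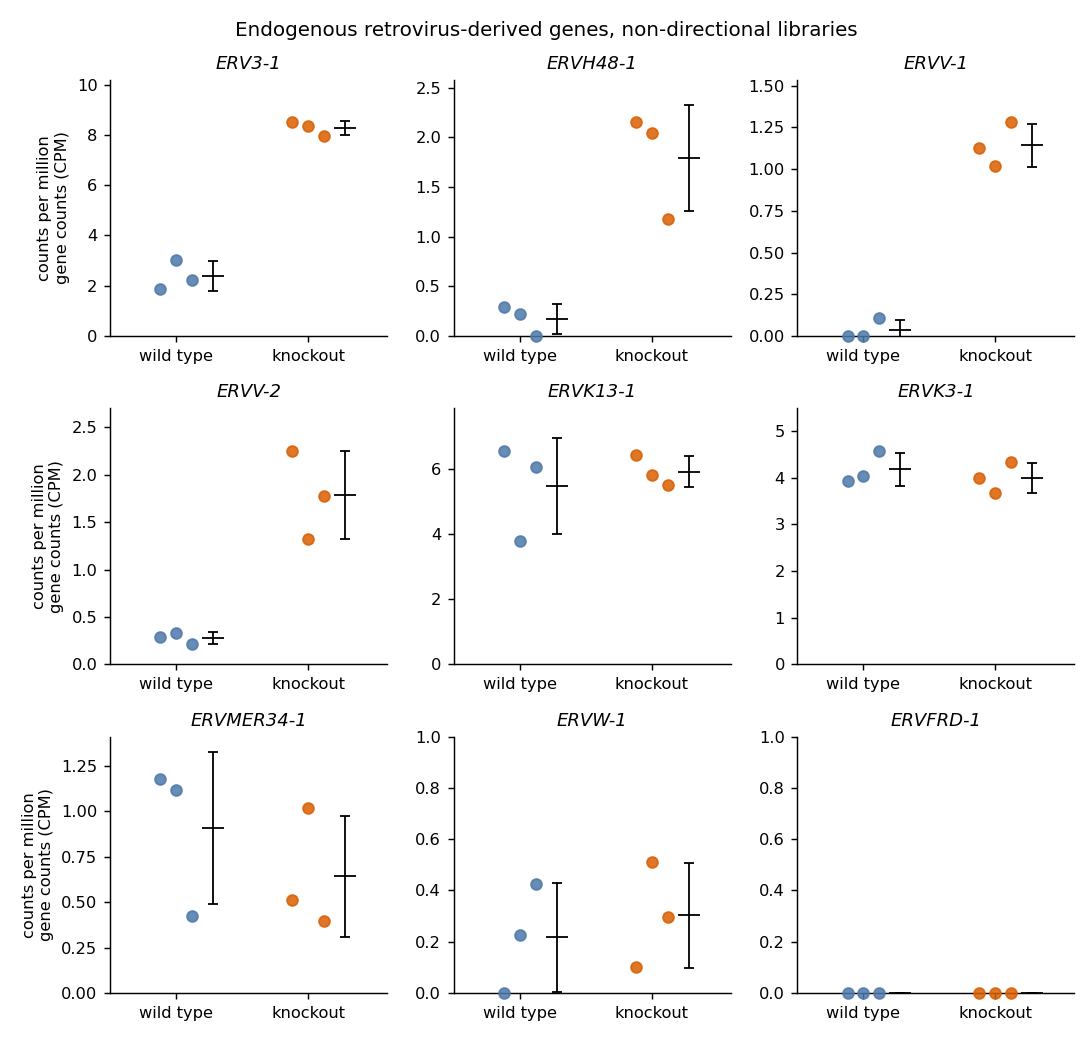
CPM (counts per 1000000 gene counts, vertical axes, a scale for each gene) of the 9 listed genes in the 3 WT and 3 KO non-directional libraries; points are libraries and bars are means ± SD. The KO points stand above all WT points in ERV3-1, ERVH48-1, ERVV-1 and ERVV-2, the groups overlap in the other genes with reads, and ERVFRD-1 is at 0 throughout.

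Among the 13778 genes tested, 25.5% were called higher in KO and 25.9% lower, 51.5% in all, so calls were common. Of the 9 listed genes 5 passed the filter, and 3 of these were called higher and 0 lower. ERVH48-1 and ERVV-2 passed it only through their KO libraries, so the share of called genes among those that passed is no measure of the list. When the log2 fold change also had to reach 1 in size, 3 listed genes were called, all higher. Over all tested genes the shares were 3.61% in that direction and 7.80% in either. ERVH48-1 and ERVV-2 are among these 3, so the same limit holds for this count. With no filter, 4 of the 8 listed genes with reads were called higher, against 11.9% of 28949 genes with a read in that direction and 24.6% in either. All KO libraries were above all WT libraries in 4 of the 8 listed genes with reads, against 16.5% of all genes with a read. The summed level of the 9 genes was 12.78 to 14.12 CPM in WT and 22.74 to 25.07 CPM in KO.

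ERVK13-1 and ERVK3-1 derive from the HERV-K group, and both were read at similar depth in the genotypes. ERVK13-1 is a noncoding processed transcript of 8966 exon bases at chr16:2660349-2673444 on the minus strand. Its counts were 67, 34 and 57 in WT and 63, 57 and 56 in KO. The WT library with 34 reads was the lowest of all, and the other values overlapped. The mean was 5.48 ± 1.47 CPM in WT and 5.93 ± 0.476 CPM in KO (SD, n = 3 each), and the log2 ratio was 0.09 (SE 0.17, adjusted p = 0.688, edgeR), and the pooled ratio of 1.07 had an exact 95% interval of 0.857 to 1.33. The direction turned without the low WT library, to -0.10.

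ERVK3-1 is annotated as protein coding at chr19:58305319-58315663 on the plus strand. It had 40, 36 and 43 reads in WT and 39, 36 and 44 in KO, so the ranges lay on each other. The mean was 4.18 ± 0.350 CPM in WT and 3.998 ± 0.329 CPM in KO (SD, n = 3 each), with a log2 ratio of -0.07 (SE 0.19, adjusted p = 0.790, edgeR) with a pooled ratio of 0.959 (exact 95% interval 0.738 to 1.25, counting error only). Of its 5023 exon bases 51.6% are shared with other annotated genes, 2071 of them with AC010642.2 on the opposite strand, where a count without strand would set reads aside. That leaves 2430 bases of its own.

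The other envelope genes had low counts, near or below the floor of 3 counts for ERVW-1 and ERVFRD-1. ERVMER34-1, which encodes the HEMO envelope protein (chr4:52722618-52751640, minus strand), had 12, 10 and 4 reads in WT and 5, 10 and 4 in KO. Its groups overlapped, with 0.908 ± 0.418 and 0.642 ± 0.333 CPM (SD, n = 3 each) and an exact permutation p of 0.3 (0.45 adjusted). ERVW-1, the gene of syncytin-1 (chr7:92468380-92477986, minus strand), had 0, 2 and 4 reads in WT and 1, 5 and 3 in KO, or 0.217 ± 0.213 and 0.303 ± 0.204 CPM (SD, n = 3 each), with an exact permutation p of 0.7 (0.7 adjusted). The counting intervals of their pooled ratios, 0.367 to 1.32 and 0.457 to 4.91, leave room for changes in either direction at this depth. ERVFRD-1, the gene of syncytin-2 (chr6:11102489-11111732, minus strand), had 0 reads in each non-directional library, which allows a level of up to 0.294 to 0.336 CPM there.

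Levels can be set beside each other only per length, and for this the CPM were divided by the kilobases of exon that no other gene shares. In WT the level of ERVK3-1 was the highest at 1.72 ± 0.144 CPM per kb (SD, n = 3). ERVK13-1 at 0.611 ± 0.164 and ERV3-1 at 0.565 ± 0.141 CPM per kb followed and overlapped each other. ERVMER34-1 stood at 0.223 ± 0.103 and ERVV-2 at 0.116 ± 0.0258 CPM per kb, also overlapping, and ERVH48-1, ERVW-1 and ERVV-1 had 0.0608, 0.0353 and 0.0161 CPM per kb.

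In KO the order of these levels was another. ERV3-1 was first at 1.97 ± 0.0645 CPM per kb (SD, n = 3), and all of its libraries were above the highest ERVK3-1 library of 1.78. ERVV-2, ERVK13-1, ERVH48-1 and ERVV-1 came next at 0.734, 0.661, 0.630 and 0.519 CPM per kb, and the ranges of neighbours in this order overlapped. ERVMER34-1 at 0.157 and ERVW-1 at 0.0494 CPM per kb were lower and did not overlap each other. The reads lost from stretches shared by ERVV-1 and ERVV-2 are not corrected in these levels, so both may be understated.

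**Figure D2:**
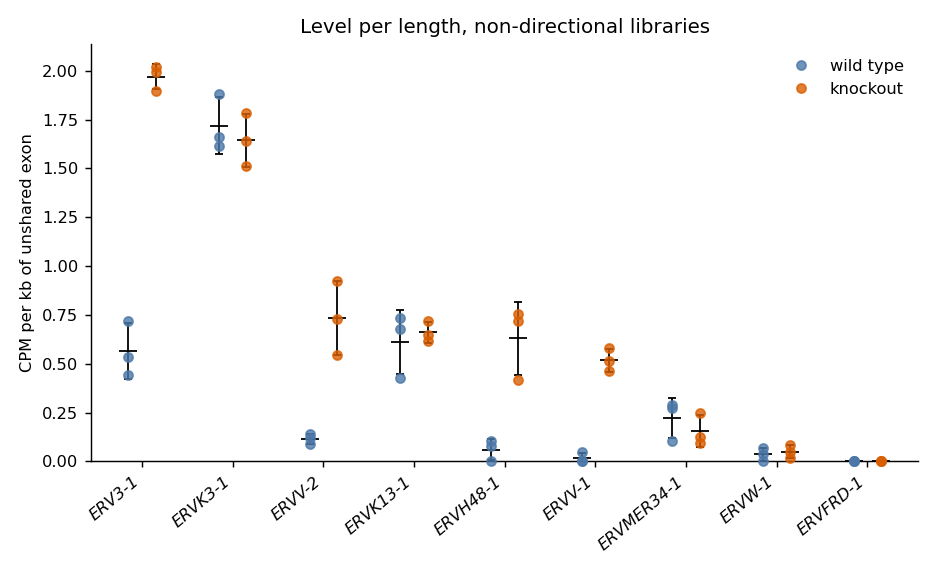
CPM per kilobase of unshared exon (vertical axis) for each listed gene in WT and KO non-directional libraries; points are libraries and bars are means ± SD, n = 3. In KO, ERV3-1 at 1.97 passes ERVK3-1 at 1.65, and the ranges of ERVV-2 and ERVH48-1 overlap that of ERVK13-1, while all ERVV-1 libraries lie below it.

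The surroundings of the listed genes were read with the same test, for the genes within 100 kb. Of 102 such neighbours 42 were tested, and 14 were higher, 6 lower and 22 not called, with a median log2 fold change of 0.12 against -0.0012 over all genes tested. The 20 of 42 called is no larger a share than the 51.5% called among all tested genes. The genes beside ERV3-1, ERVV-1 and ERVV-2 that were called were all higher. The same held beside ERVK13-1 and ERVW-1, whose own RNA was not called. Beside ERVFRD-1, all 3 tested genes were lower.

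ERV3-1 overlaps ZNF117, a zinc finger gene on the same strand at chr7:64971776-65006684 that starts at nearly the same place. ZNF117 had 49, 44 and 58 reads in WT and 177, 169 and 175 in KO, with a log2 fold change of 1.72 (SE 0.12, adjusted p = 2.6e-21, edgeR), close to the 1.80 of ERV3-1. Of the 50-base words of ERV3-1, 6.1% also occur in other annotated genes, 274 of them in ZNF117. ZNF273, 59.8 kb away, was higher by 0.68 on the log2 scale (SE 0.070, adjusted p = 7.1e-14, edgeR), and CCT6P3 at 0.63 did not pass (adjusted p = 0.089). Within 5 Mb of ERV3-1, 16 of 32 tested genes were higher and 2 lower, with a median log2 fold change of 0.36.

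ERVV-1 lies inside the span of ZNF702P, a zinc finger pseudogene on the opposite strand, without sharing exon bases with it. ZNF702P went from 18.6 ± 1.87 to 36.6 ± 2.52 CPM (SD, n = 3 each), higher by 0.97 on the log2 scale (SE 0.079, adjusted p = 1.7e-18, edgeR). ZNF347, 73.0 kb from ERVV-2, was higher by 0.96 (adjusted p = 1.1e-15, edgeR), and the log2 fold changes of ZNF888, ZNF321P, ZNF816 and ZNF160 beside the pair, between -0.01 and 0.39, did not pass. Within 5 Mb of the pair, 108 of 227 tested genes were higher and 21 lower, with a median log2 fold change of 0.19. The changes of ERVV-1 and ERVV-2 were larger than those of every tested neighbour, and whether the surrounding shift has a part in them was not tested.

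ERVH48-1 stood apart from the genes around it in size. WDR4 was higher by 0.28 on the log2 scale (adjusted p = 3.2e-06, edgeR), NDUFV3, 3.50 kb away, was lower at -0.17 (adjusted p = 0.0039, edgeR), and PKNOX1 at 0.01 did not pass. Within 5 Mb the median log2 fold change was 0.01 over 55 tested genes.

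Of the genes that were not called, only ERVK3-1 had called neighbours in both directions. Those beside ERVK13-1 and ERVW-1 were all higher, and those beside ERVMER34-1 and ERVFRD-1 all lower. Within 5 Mb of ERVK3-1, 55 of 132 tested genes were higher and 17 lower, with a median log2 fold change of 0.14, near the 0.19 around the ERVV pair. Beside ERVK13-1, AC141586.1, SRRM2 and PDPK1 were higher by 0.63, 0.25 and 0.17 on the log2 scale. Beside ERVK3-1, AC020915.3, ZNF544 and ZNF274 were higher by 0.52, 0.34 and 0.21, while ZSCAN22 was lower at -0.50, and 5 of the 13 tested genes were called in all. ANKIB1 beside ERVW-1 was higher by 0.13, near the threshold, and USP46 beside ERVMER34-1 was lower at -0.18. Beside ERVFRD-1, NEDD9, a scaffold protein of focal adhesions, fell from 48.8 to 6.14 CPM (log2 fold change -2.99, adjusted p = 1.9e-44, edgeR), and ELOVL2 and SMIM13 were lower at -0.35 and -0.32.

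**Figure D3:**
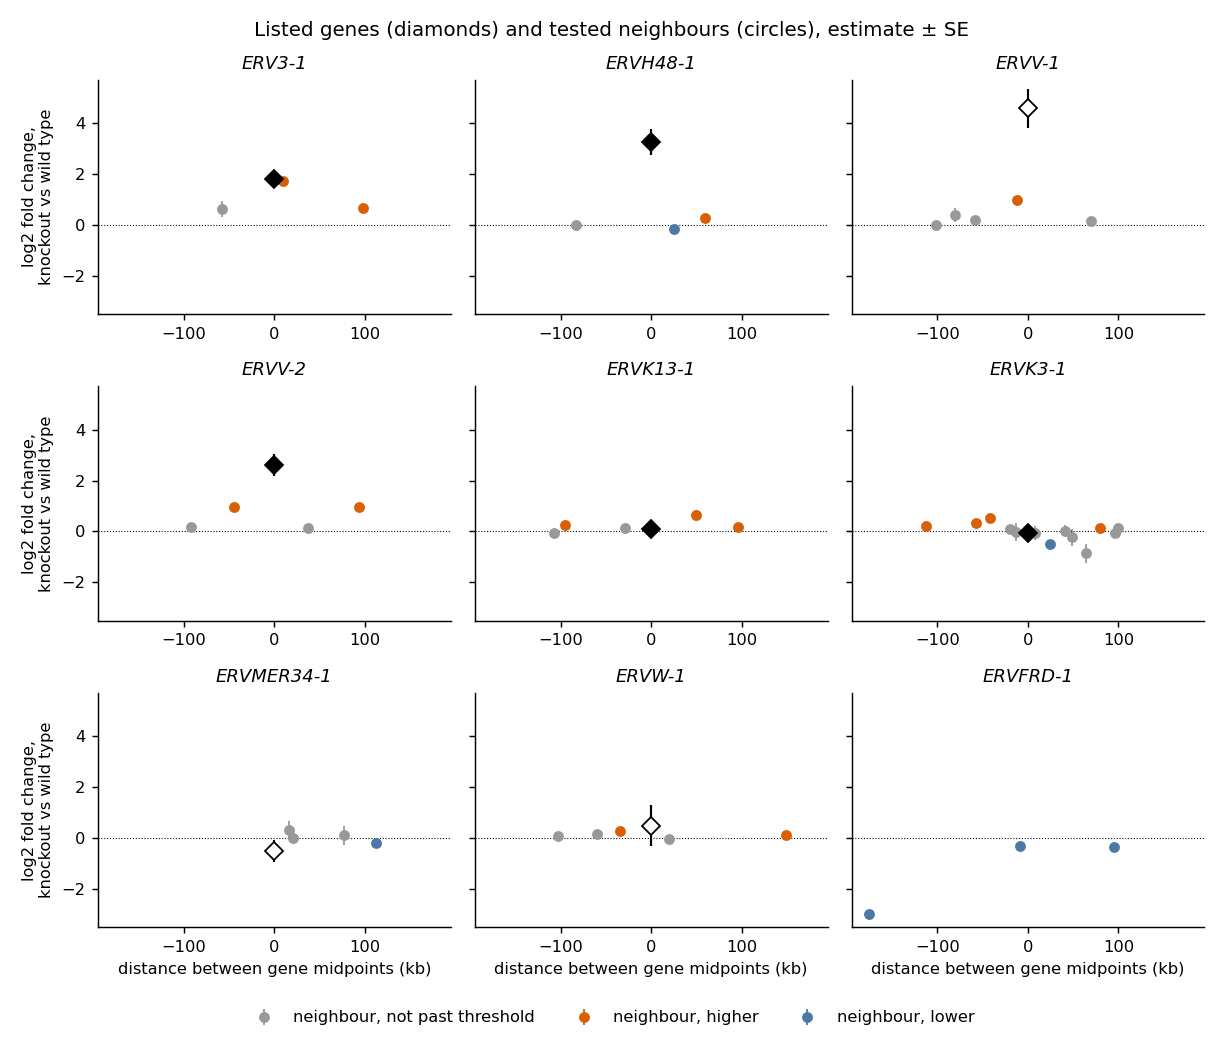
Log2 fold change of KO against WT (vertical axis, edgeR, bars are SE) of each listed gene and its tested neighbours within 100 kb, by the distance between gene midpoints in kb (horizontal axis, positive in the direction in which the listed gene is transcribed). Diamonds are listed genes, filled where tested and open where the value comes from the fit with no filter, and ERVFRD-1 has no diamond because it had no read; ERV3-1 and ZNF117 lie together near 1.80 and 1.72, while ERVH48-1 at 3.25 stands far from its neighbours.

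The genes whose levels followed each listed gene most closely across the 6 non-directional libraries were found by Pearson's r of the log2 CPM, as a description. For ERV3-1 these were TXN, USP49 and TPCN1 (r of 0.9995, 0.9985 and 0.9984), for ERVH48-1 ACSF2, P3H1 and ZNF682 (0.9988, 0.9982 and 0.9969), and for ERVV-2 HERC2, DMBX1 and STC2 (0.9984, 0.9982 and 0.9971). The libraries fall into the genotypes, so every gene with a strong change in the same direction comes near such values, and 2038, 1419 and 2013 genes had an r above 0.9 with these 3 genes. For ERVK13-1, whose groups overlapped, 106 genes did, led by MAK16, RAB1A and ZNF461. For ERVK3-1 it was 35 genes, led by TMX4, AL390728.4 and CCT6P1.

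The directional libraries add little on the listed genes. They held only 532021 to 676691 gene counts, so 3 counts are 4.43 to 5.64 CPM, and 5.23% to 5.30% of their reads fell in genes against 80.3% to 80.4% in the non-directional libraries. The 1000 genes with most reads in the non-directional WT libraries had a directional median of 1.48 to 1.65 per 1000000 listed reads. Their non-directional median was 266.4 to 270.7, so the strand that was counted in the directional libraries is in doubt. ERV3-1 had 0, 0 and 0 reads in WT and 1, 1 and 0 in KO, and ERVV-1 and ERVV-2 together had none in WT and 3 in KO. Only ERVMER34-1 had more than 4 reads in a library, with 5, 10 and 5 in WT and 8, 9 and 13 in KO, and no test was made on these counts. ERVFRD-1, without a read in the deeper libraries, had 1 read in each directional WT library and 0, 0 and 1 in KO.

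Other genes that belong to the same biology were called in both directions, as were genes in general (25.5% of all tested genes higher and 25.9% lower). Of 5 receptors and partners of the envelope proteins 4 were tested, and 1 was higher, 2 lower and 1 not called. SLC1A5, the receptor of the ERVW-1 protein that suppressyn also binds, was higher by 0.12 on the log2 scale (adjusted p = 1.9e-04, edgeR). SLC1A4, another receptor of the ERVW-1 protein, was lower at -0.49 (adjusted p = 5.4e-05, edgeR), as was FURIN, the protease that cleaves envelope precursors, at -0.30 (adjusted p = 5.9e-07, edgeR). MFSD2A, the receptor of the ERVFRD-1 protein, had a log2 fold change of -0.10 and did not pass (adjusted p = 0.348, edgeR), and GCM1, a placental transcription factor that acts on the syncytin genes, had at most 3 reads in a library. Of 15 trophoblast markers 7 had no read, among them the CGB3, CGB5 and CGB8 hormone genes and PSG1, and of the 5 tested 0 were higher and 2, TFAP2C and GATA2, were lower at -0.27 and -0.20.

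Further genes named after endogenous retroviruses went in both directions. Of 11 such or HERV-H-associated genes 4 were tested, and 1 was higher, 1 lower and 2 not called, against 51.5% called over all genes tested. ERVMER61-1, a long noncoding RNA at chr1:187070700-187686622 on the plus strand, had 37, 33 and 41 reads in WT and 0, 1 and 2 in KO. It fell from 3.90 ± 0.406 to 0.0996 ± 0.0985 CPM (SD, n = 3 each), with a log2 ratio of -5.11 (SE 0.44, adjusted p = 2.6e-17, edgeR), and in the 5 Mb around it 23 of 27 tested genes were lower and 0 higher. ERVK-28 was higher by 0.28 (SE 0.065, adjusted p = 1.7e-04, edgeR), with 351, 303 and 308 reads in WT and 408, 407 and 410 in KO.

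Of 31 other genes that derive from retroelement gag or pol sequences, 19 were tested, and 8 were higher, 5 lower and 6 not called, with a median log2 fold change of 0.10. ARC, whose protein forms capsid-like shells in neurons, and PNMA6A were higher by 1.56 and 1.30, and RTL8B and NYNRIN were lower at -1.43 and -1.24 (adjusted p of 1.4e-06 or less for each, edgeR). Of 17 genes that act in the silencing of endogenous retroviruses, 4 were higher, 6 lower and 7 not called. For this list and the gag and pol list, the shares over all genes tested were 25.5% higher and 25.9% lower. ATF7IP, the partner that stabilizes SETDB1, rose from 57.2 to 176.7 CPM (log2 fold change 1.62, SE 0.044, adjusted p = 3.7e-49, edgeR). SUV39H1, another methyltransferase of the same histone residue, was lower at -0.74 (adjusted p = 4.6e-19, edgeR), FAM208A of the HUSH complex was higher by 0.30 and CBX5, a reader of the mark, was lower at -0.25.

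Among the cell type markers, epithelial EPCAM rose with a log2 fold change of 3.40 (adjusted p = 1.2e-42, edgeR), KRT8 was higher by 0.47 and CDH2 was lower at -0.45, with 2 of 5 tested adherent cell markers not called. TAL1, a blood transcription factor, was lower at -2.32, and the fusion partners ABL1 and BCR were higher by 1.40 and 0.64. The part of these shifts in the levels of the listed genes was not tested.

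**Figure D4:**
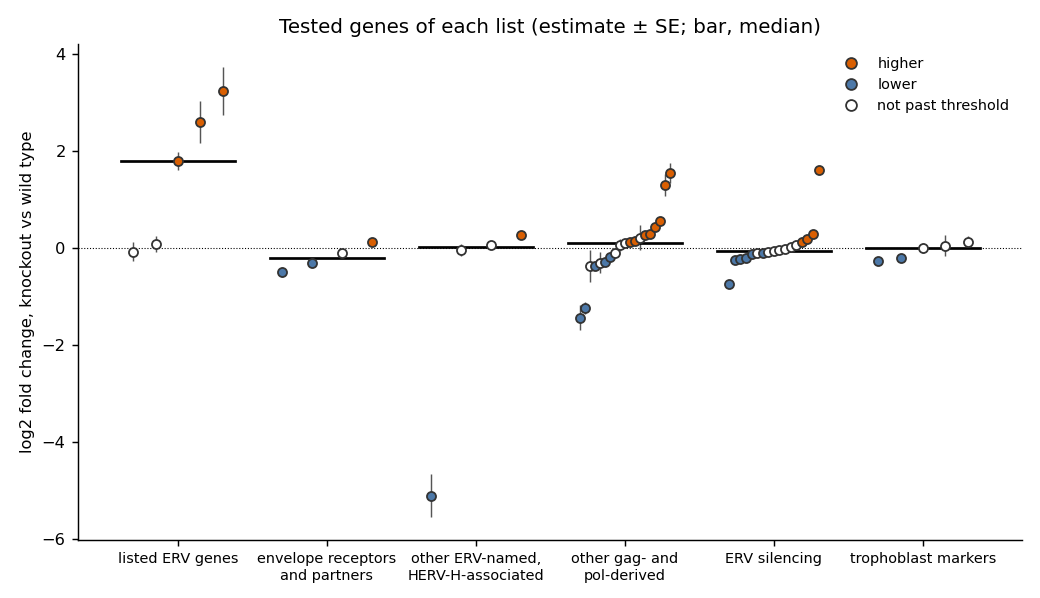
Log2 fold change of KO against WT (vertical axis, edgeR) of the tested genes of each list (columns); points are genes with SE bars and the horizontal line is the list's median. Of the 5 tested listed genes 3 lie between 1.80 and 3.25 and the others at 0.09 and -0.07, and every other list shown has points on both sides of 0.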

How the data were processed

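RNA sequencing libraries of WT and SETDB1 KO HAP1 cells were grouped by their titles into 3 per genotype and kit. The authors deposited raw counts per gene for each library, in the layout of HTSeq. Per the labels, total RNA went through a non-directional or a directional NEBNext kit, and the submitters' processing notes list hg38, Trim Galore 0.4.4, STAR 2.6.0a, SAMtools 1.9, Picard 2.23.8 and HTSeq 0.11.1. The annotation and strand setting are not given in the sources used here. All 58735 gene IDs matched GENCODE 29. Deposited signals over L1 elements were not used here. Lines for reads in no gene (4.00% to 4.40% of non-directional reads), ambiguous reads (8.37% to 8.41%) and reads without a unique alignment (6.86% to 7.19%) were left out of library sizes.

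Counts were filtered with filterByExpr (minimum count 10, minimum total 15), scaled by TMM and tested over all genes by edgeR 4.0.16 (quasi-likelihood F-test, R 4.3.3, limma 3.58.1). P-values were adjusted after Benjamini-Hochberg and called below 0.05. Approximate SEs were taken as the size of each log2 fold change over the root of its F statistic. Listed genes with reads below the filter were tested by exact permutation. Alternatives were DESeq2 1.42.0 size factors and its Wald test, no filter, a replicate block, a log2 fold change of 1 or more in size, each library left out, and, chosen after seeing the data, the KO libraries summed as 1. Fits were tested on simulated data. Intervals (exact, 95%) and floors (3 counts) cover counting error only, since reads without molecular identifiers are not independent molecules.

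The listed genes, related lists and tests were chosen with earlier results of these data known. The text names the listed genes, SETDB1, for each listed gene up to 4 called neighbours within 100 kb, from each related list up to 4 called genes with the largest change, and the 3 genes most like each tested listed gene (log2 CPM with a prior count of 2). One gene that this rule would name is not reported here. Other genes named were chosen after their values were seen. Words of 50 bases were compared among GENCODE 29 transcripts only. Promoters are from RefSeq. Directional counts were given with no test.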

Additional observations from a re-analysis of the deposited data

How the results depend on the processing

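ERV3-1, ERVH48-1 and ERVV-2 were called higher under all 11 alternatives, with log2 fold changes of 1.64 to 2.01, 2.70 to 3.87 and 2.41 to 2.78. The fits that use the filter kept ERVH48-1 and ERVV-2 only through their KO counts, so passing in them adds no support for these genes. The number of listed genes called was 3 in the replicate block, with DESeq2 size factors and with the KO libraries summed, 4 with the DESeq2 Wald test and with no filter, and 3 to 4 with a library left out, the fourth being ERVV-1. So the genes below the filter went from 0 called to 1 with no filter. The 0 came from a permutation test that could call no gene at 3 against 3 libraries. ERVK13-1 turned to -0.10 without WT replicate 2 and ERVK3-1 to 0.00016 without WT replicate 3, neither past the threshold, within ranges of -0.10 to 0.24 and -0.13 to 0.00016 when a library was left out. Neighbours called went from 20 to 13 with the DESeq2 Wald test, and to 2 when a log2 fold change of 1 or more in size was required. That size limit also took the receptors and partners from 3 to 0, the other ERV-named genes from 2 to 1, the gag and pol genes from 13 to 4, the silencing genes from 10 to 1, the trophoblast markers from 2 to 0, the fusion partners from 2 to 1 and the adherent markers from 3 to 1, by its construction. The adherent markers ranged from 3 to 5 with a library left out, reaching 5 without WT replicate 1. Of 46 tested genes that the naming rule picks, 37 kept their direction and side of the threshold under every alternative. The genes picked only for being most like a listed gene are not among the 46 and were not followed through the alternatives. Besides ERVK13-1 and ERVK3-1, the call was lost in at least 1 alternative for ANKIB1, AC141586.1, PDPK1, AC020915.3, ZSCAN22, ZNF274 and NDUFV3. The cause was not tested.

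Replicate numbers did not pair the libraries (correlations of same-numbered deviations -0.0012, -0.0045 and -0.025), and the replicate block left the listed genes called at 3 and moved the neighbours from 20 to 21. Depth limits ERVV-1, ERVW-1, ERVMER34-1 and ERVFRD-1, for which 3 counts are 0.294 to 0.336 CPM.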

Other observations

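Some genes outside the main test showed the same kind of counts as the listed genes that rose, and they were chosen after their values were seen. CCDC8, of the gag and pol list, had 1, 0 and 0 reads in the non-directional WT libraries and 12, 10 and 15 in KO, with a log2 fold change of 4.70 in the edgeR fit with no filter (adjusted p = 2.9e-09). HHLA2, a HERV-H-associated immune ligand, had 1, 0 and 2 reads in WT and 10, 1 and 7 in KO (adjusted p = 0.009, edgeR with no filter), with overlapping groups.

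AC010642.2 and AC007566.1, chosen after their values were seen, had more reads in the directional libraries than in the far deeper non-directional ones. SMIM13 and ZNF702P, which also lie opposite listed genes, did not, with at most 5 reads per directional library. AC010642.2, opposite ERVK3-1, had 15, 20 and 18 reads in WT and 23, 19 and 11 in KO in the non-directional libraries, and 450, 453 and 370 in WT and 482, 437 and 452 in KO in the directional ones. AC007566.1, opposite ERVW-1, had 1 to 2 reads per non-directional library and 23 to 44 per directional library. The strand counted in the directional tables is not stated, so these counts were not assigned to either gene.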
